A study of Mus musculus with 8 samples.

Results

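Small leucine-rich proteoglycans are secreted proteins whose curved, leucine-rich repeat domain binds collagen fibrils, and most carry chondroitin, dermatan or keratan sulfate chains. In dermis they are made mainly by fibroblasts, where they space and size collagen fibrils and hold growth factors such as TGF-beta. Decorin is the best studied of them in skin, and mice without it have fragile skin with irregular fibrils. The 10 genes described here, Dcn, Lum, Fmod, Bgn, Kera, Ogn, Omd, Aspn, Prelp and Podn, were chosen by name and looked up by gene symbol among the 55488 genes of the files. All 10 were found and all 10 passed the filter on low counts, as did 16908 genes in all.

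The libraries are bulk RNA-seq of total RNA from dorsal skin of 3-month-old mice, 4 from TPH1 knockout and 4 from wild-type (WT) animals. Tph1 encodes the tryptophan hydroxylase that makes serotonin outside the brain, and the series title gives epidermal differentiation and dermal homeostasis as its subject. The labels give genotype only, with no strain, sex, litter, batch or details of the knockout allele, and do not tell whether the libraries stem from separate mice. The p-values here therefore rest on library-to-library spread, which may be technical in part. Libraries held 20531601 to 24678638 expected counts. Tph1 had 0 counts in each knockout library, against 18, 0, 27 and 11 in WT libraries (mean 0 against 0.597 CPM, two-sided exact permutation p = 0.143). WT replicate 2 is thus a WT library without a Tph1 count. Xist was at 472 to 685 CPM in knockout and 292 to 529 CPM in WT libraries, and the Y-linked genes Ddx3y, Eif2s3y, Kdm5d and Uty were at 0 in all 8, a point that bears on the X-linked Bgn.

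None of the 10 genes passed the test between the genotypes (edgeR quasi-likelihood test, Benjamini-Hochberg adjusted p under 0.05), and 0 had an unadjusted p under 0.05. Over all genes tested, 0.651% were called (0.118% higher and 0.532% lower in knockout) and 17.6% had an unadjusted p under 0.05. DESeq2, which called 4.71% of its genes, called 0 of the 10 as well. Log2 fold changes of knockout over WT were positive for 7 genes and negative for 3, with a median of 0.335, beside 0.029 over all genes tested. In every one of the 10 genes the knockout and WT libraries overlapped, while 11% of all tested genes had no overlap. The values below describe the spread of these genes between libraries of 1 genotype, and the level of some of them relative to the main dermal collagens.

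Transcript levels per length were compared in TPM, which scales for gene length and library size. Dcn, which encodes decorin, was the most abundant of the 10. It was at 116, 219, 608 and 129 TPM in knockout replicates 1 to 4, against 569, 125, 190 and 161 TPM in WT replicates 1 to 4. Knockout replicate 3 and WT replicate 1 stood well above the other libraries and the groups overlapped across their whole range. The group means were 268 ± 232 TPM in knockout and 261 ± 207 TPM in WT (SD, n = 4 each). Bgn, the gene of biglycan, a close relative of decorin that carries a pair of chains and can act on Toll-like receptors, followed at 51.4, 90.5, 157 and 54.6 TPM in knockout libraries, against 138, 54.6, 96.7 and 91.9 TPM in WT libraries. It was highest in the same 2 libraries as Dcn, with a smaller range.

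The next genes lay close together. Lum, which encodes the keratan sulfate proteoglycan lumican, averaged 28.9 ± 26.4 TPM in knockout and 33.5 ± 27.0 TPM in WT (SD, n = 4 each). Prelp, whose product has a basic N-terminus that binds heparan sulfate chains, averaged 24.6 ± 22.3 and 28.5 ± 13 TPM in knockout and WT. The gene of osteoglycin, Ogn, averaged 24.0 ± 12.2 TPM in knockout and 16.4 ± 7.25 TPM in WT. Asporin, encoded by Aspn, is related to decorin but carries a run of aspartates and no sulfated chain, and its gene averaged 19.6 ± 10.4 TPM in knockout and 12.9 ± 10.2 TPM in WT. Podn, which encodes the collagen-binding podocan, was at 14.6 ± 8.55 and 11.2 ± 3.15 TPM, and Fmod, the gene of the collagen-binding fibromodulin, at 8.58 ± 10.1 and 6.44 ± 6.17 TPM in knockout and WT. Omd, known from bone as osteomodulin, and Kera, the gene of the corneal proteoglycan keratocan, were near the bottom, at 1.33 ± 0.927 and 0.900 ± 0.998 TPM in knockout and 0.843 ± 0.321 and 0.460 ± 0.538 TPM in WT.

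The order of mean level, from Dcn through Bgn, Lum, Prelp, Ogn, Aspn, Podn, Fmod and Omd to Kera, was the same in both genotypes. Adjacent genes in that order had overlapping ranges over libraries in knockout in every case, and in WT in every case but Fmod over Omd. Within single libraries some steps were firmer: Dcn lay above Bgn, Bgn above Lum, and Fmod above Omd, in 4 of 4 knockout and 4 of 4 WT libraries. Lum lay above Prelp in 4 of 4 knockout but 2 of 4 WT libraries, and Prelp above Ogn in 1 of 4 knockout but 4 of 4 WT libraries; neither difference was tested.

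**Figure D1:**
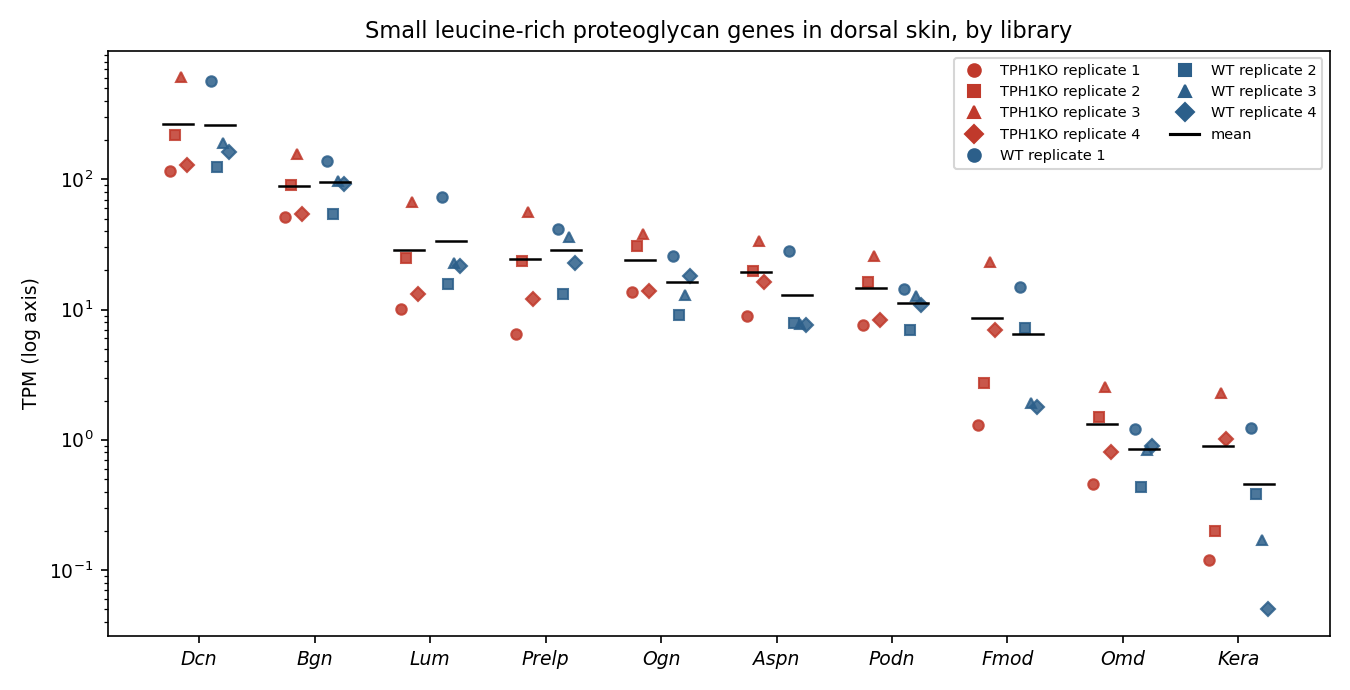
TPM on a log axis of the 10 proteoglycan genes in each of 4 TPH1 knockout (red) and 4 WT (blue) libraries, with a black bar at each group mean. Dcn averaged 268 TPM in knockout and 261 TPM in WT, and the libraries of both genotypes overlap for every gene.

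The 10 genes lie at 5 places in the GRCm38 genome, 8 of them in 3 runs of neighbours. On chromosome 10, Dcn (97479609 to 97518143), Lum (97565128 to 97572703) and Kera (97606879 to 97613692) follow each other on the plus strand, with gaps of 47.0 and 34.2 kb. Chromosome 13 holds Aspn (49544443 to 49567565), Omd (49582462 to 49592822) and Ogn (49608046 to 49624501), also on the plus strand, with gaps of 14.9 and 15.2 kb. Prelp (133910304 to 133921414, minus strand) and Fmod (134037254 to 134048277, plus strand) are 116 kb apart on chromosome 1. In all 5 gaps there was no other protein-coding gene wholly inside. Bgn is on chromosome X (73483602 to 73495933) and Podn on chromosome 4 (108014791 to 108096445). The library kit named in the labels does not mark strand, so overlapping genes matter here. Cenpp, on the opposite strand, spans Aspn, Omd and Ogn, shares 7 exonic bases with Aspn and 0 with the other two, and was at a mean of 1.7 CPM over 8 libraries. The antisense gene Gm15851 shares 350 exonic bases with Prelp and was at 0.144 CPM.

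Neighbours did not all share a pattern over libraries. Patterns were compared as log2(CPM + 1) less each gene's own mean over the 8 libraries, by the root mean square (RMS) difference between 2 genes. Dcn and Lum, which are adjacent, were the nearest pair with Dcn in it (RMS difference 0.171 on the log2 scale), and each was the other's nearest. Fmod, by contrast, was 1.14 from its neighbour Prelp and lay nearest to Kera, at 0.599, on another chromosome. Aspn was 0.508 from its neighbour Omd and nearest to Ogn, the next gene along, at 0.444, while Ogn itself was nearest to Podn, at 0.274, on another chromosome. Omd and Podn were 0.163 apart, though Omd and Kera are low enough that adding 1 CPM flattens their patterns.

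**Figure D2:**
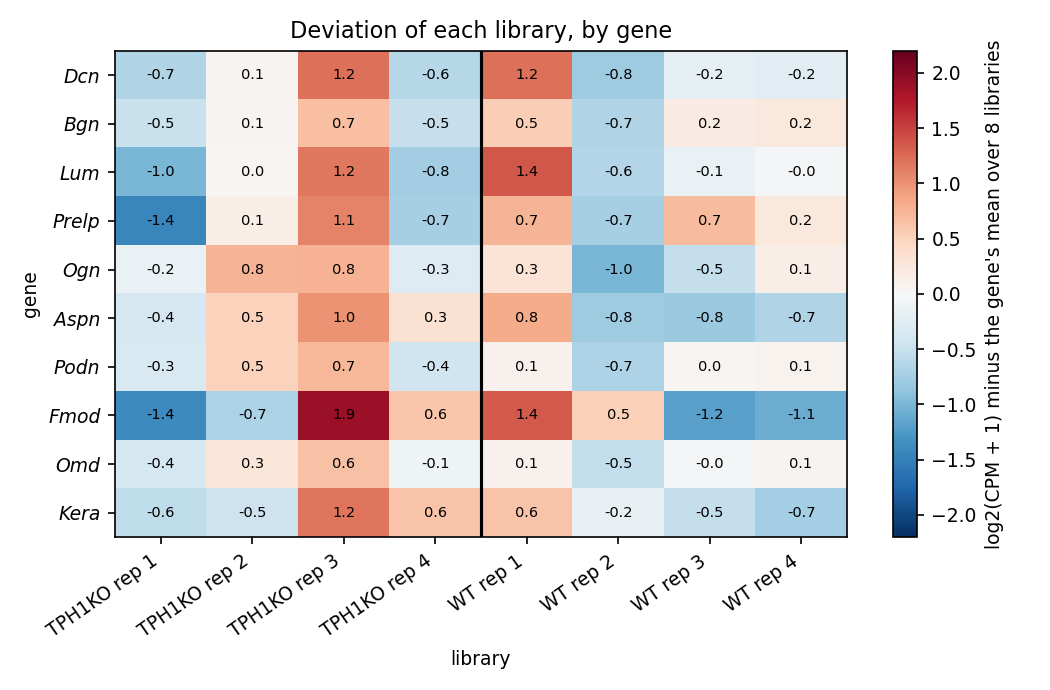
Log2(CPM + 1) of each gene in each library less the gene's mean over 8 libraries, with TPH1 knockout replicates left of the line and WT replicates right of it. Knockout replicate 3 and WT replicate 1 are positive for all 10 genes, and Fmod, Kera and Aspn are also positive in knockout replicate 4.

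Knockout replicate 3 was the highest knockout library for 10 of 10 genes, and WT replicate 1 the highest WT library for 10 of 10. Their summed level over the 10 genes was 1014 TPM in knockout replicate 3, beside 216 to 430 TPM in the other knockout libraries, and 907 TPM in WT replicate 1, beside 240 to 382 TPM in the other WT libraries. Knockout replicate 1 was the lowest knockout library for 7 genes, and WT replicate 2 the lowest WT library for 7. The biological coefficient of variation that edgeR estimated within genotypes was above the median of all tested genes, 0.244, in every one of the 10. It ran from 0.303 for Podn to 0.779 for Fmod and 0.896 for Kera, which put them between the 64.9th and the 99th percentile.

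Marker sums of several cell types were also highest in those libraries. The summed CPM of 14 fibroblast markers was 2822 in knockout replicate 3, against 1847 to 2306 in the other knockout libraries, and 4080 in WT replicate 1, against 2647 to 3231 in the other WT libraries. Single fibroblast markers did not all follow the sum. Ly6a, Twist2 and Clec3b were at 106, 4.14 and 69.5 CPM in knockout replicate 3, below 139, 4.5 and 70.8 CPM in knockout replicate 2. In WT libraries each of them was highest in replicate 1 (241, 7.68 and 102 CPM). The other markers of that list are not given singly. Endothelial markers, 5 genes, reached 258 CPM in knockout replicate 3 and 199.7 CPM in WT replicate 1, and 6 leukocyte markers reached 678 and 710 CPM there, all the highest of their genotype. The tendon gene Tnmd was at 9.24 CPM in knockout replicate 3 and 10.1 CPM in WT replicate 1, and between 0.833 and 2.23 CPM in the other 6 libraries. Mkx was also highest of its genotype there (2.27 and 2.95 CPM), but Scx was lowest (5.84 and 7.3 CPM). The sum of 7 tendon and cartilage markers was 137.4 and 126.1 CPM there. That sum was highest in knockout replicate 2 (185.8 CPM) and WT replicate 2 (144.6 CPM), so the list did not mark these libraries. Hair matrix and shaft markers, 8 genes, summed to 852 CPM in knockout replicate 3 but to 17.4 CPM in WT replicate 1, so they did not mark both. Skeletal muscle markers, 9 genes, were not high there: they summed to 47480 CPM in knockout replicate 3, against 48410 to 86710 CPM in the other knockout libraries, and to 30730 CPM in WT replicate 1, against 78170, 11600 and 63970 CPM in WT replicates 2, 3 and 4. WT replicate 3, with the lowest muscle sum, was not high for the proteoglycans. Between genotypes, 9 of 9 muscle markers had positive and 7 of 7 adipocyte markers negative log2 fold changes. In either list 0 were called by edgeR (0.651% of all genes), and DESeq2 called Myh1 (4.71% of its genes). Myh1 and Myh2 were higher in every knockout than in every WT library, 22.2% of the muscle list, beside 11% of all genes without overlap. The part of these markers in the proteoglycan spread was not tested. In bulk tissue, fewer cells of a type and less RNA per cell cannot be told apart.

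Fmod and Kera showed a second pattern over the libraries. Fmod was at 3.61, 6.50, 44.6 and 17.6 CPM in knockout replicates 1 to 4, against 30.1, 16.5, 4.31 and 4.68 CPM in WT replicates 1 to 4. Besides the libraries high for all 10 genes, knockout replicate 4 and WT replicate 2 were high, although both were low for Dcn. Kera held 5, 8, 72 and 40 counts in knockout libraries, against 48, 14, 6 and 2 in WT libraries, with the same 4 libraries on top. The tested gene with a mean CPM of at least 10 nearest to Fmod, Ugt1a1, was still 0.412 away, a search added after the Fmod values were seen.

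By the same measure, the non-member genes nearest to the mean pattern of the 10 were Dse (0.143), Abi3bp (0.153), Man1a (0.157), Csf2rb2 (0.160) and Thbd (0.161). Dse encodes an epimerase that turns chondroitin sulfate into dermatan sulfate, the chain carried by decorin and biglycan in skin, and Abi3bp a matrix protein. Dse was at 7.36, 12.2, 19.7 and 8.33 CPM in knockout libraries, against 18, 8.04, 9.53 and 8.28 CPM in WT libraries, with knockout replicate 3 and WT replicate 1 again highest of their genotypes. Nearest to Dcn alone were Serpina3n (0.192), a serine protease inhibitor gene, Scara5 (0.197), which encodes a scavenger receptor, and Pcolce2 (0.199), which encodes an enhancer of procollagen cleavage. All of these distances are over the same 8 libraries.

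None of the differences exceeded its standard error by enough to pass the test. For Dcn the log2 fold change was 0.01 ± 0.52 (SE), with a 95% interval of -1.16 to 1.17, so the interval held changes of either sign. Bgn had the log2 fold change -0.12 ± 0.31 (SE; interval -0.82 to 0.57) and Podn 0.29 ± 0.29 (interval -0.36 to 0.95), the narrowest intervals of the 10. Lum and Prelp were at -0.24 ± 0.55 and -0.27 ± 0.51, Fmod at 0.38 ± 0.83, Omd at 0.44 ± 0.46 and Kera at 0.96 ± 0.95 (SE). Adjusted p-values from edgeR ran from 0.424 for Ogn to 0.995 for Dcn.

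Aspn and Ogn had the smallest p-values of the 10. Ogn was at 31.1, 59.1, 59.5 and 28.3 CPM in knockout libraries, against 42.9, 16.8, 23.8 and 38.5 CPM in WT libraries. Its highest knockout values exceeded every WT value, but the other 2 knockout libraries lay inside the WT range (log2 fold change 0.55 ± 0.34 SE, edgeR adjusted p = 0.424). Aspn was at 18, 33.8, 47.2 and 29.7 CPM in knockout libraries, against 42.0, 13.2, 12.8 and 14.5 CPM in WT libraries. All 4 knockout libraries were above WT replicates 2, 3 and 4, and WT replicate 1 alone made the groups overlap (log2 fold change 0.64 ± 0.42 SE, edgeR adjusted p = 0.449). Without WT replicate 1 the log2 fold change of Aspn was 1.25 ± 0.29 (SE; unadjusted p = 0.00213, edgeR adjusted p = 0.130), beside a background of 16.8% of genes with an unadjusted p under 0.05 in that fit, where 0.151% of genes were called. Leaving out a library moved every gene: without knockout replicate 3, Dcn was at -0.58 and Lum at -0.88, and without WT replicate 1 they were at 0.60 and 0.37, with no call among the 10 in either fit (0.991% of all genes called without knockout replicate 3).

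**Figure D3:**
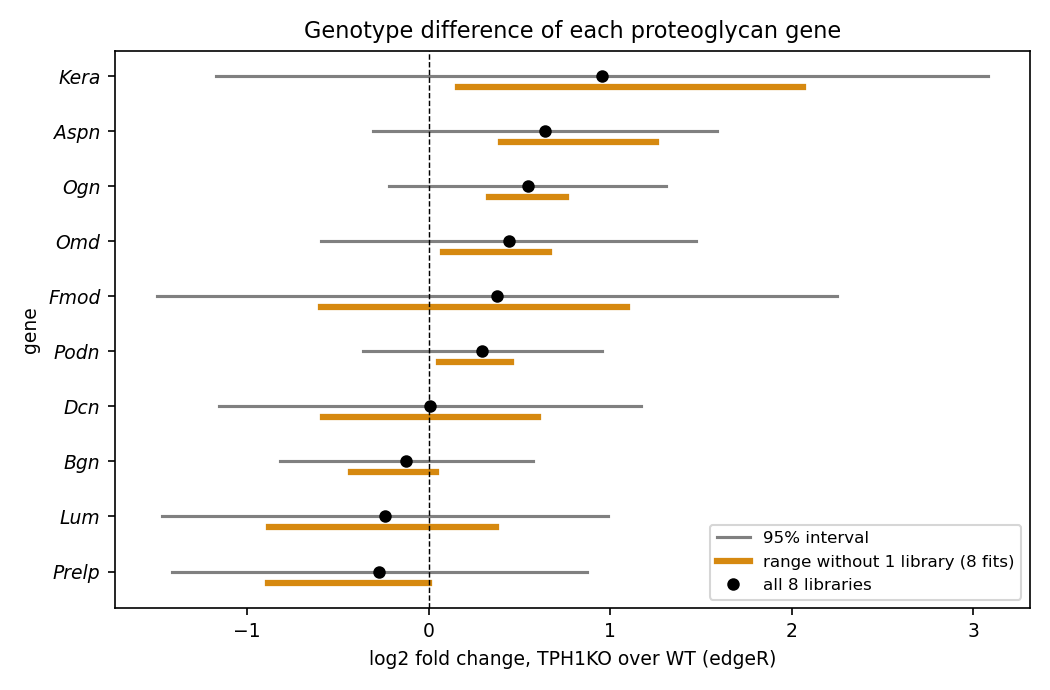
Log2 fold change of TPH1 knockout over WT for each gene from edgeR, with its 95% interval (grey) and the range over the 8 fits that each leave out 1 library (orange). Every interval spans 0, and the ranges of Kera, Aspn, Ogn, Omd and Podn stay above 0.

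The promoters of Aspn and Ogn, which lie on either side of Omd and had the smallest p-values of the 10, and of Fmod and Kera, which shared the second pattern, are shown for reference. RefSeq's table on GRCm38.p6 held a promoter for 8 of the 10 genes, not for Dcn and Lum, each running from 250 bases before to 50 after the annotated start. For Kera that start differs from the gene position given above (97606879 to 97613692), and the whole window lies inside that gene position. Capitals mark matches on either strand to 5 motifs: the TATA box TATAAA, the CCAAT box CCAAT, the GC box GGGCGG, the AP-1 site TGANTCA and the SMAD box CAGACA.
Aspn (chr13:49544193-49544492, plus strand): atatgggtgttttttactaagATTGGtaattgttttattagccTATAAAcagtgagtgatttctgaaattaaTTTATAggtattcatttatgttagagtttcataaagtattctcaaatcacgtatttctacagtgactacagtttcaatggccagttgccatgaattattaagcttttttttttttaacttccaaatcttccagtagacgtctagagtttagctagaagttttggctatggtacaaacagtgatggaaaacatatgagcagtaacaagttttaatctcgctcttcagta
Ogn (chr13:49607765-49608064, plus strand): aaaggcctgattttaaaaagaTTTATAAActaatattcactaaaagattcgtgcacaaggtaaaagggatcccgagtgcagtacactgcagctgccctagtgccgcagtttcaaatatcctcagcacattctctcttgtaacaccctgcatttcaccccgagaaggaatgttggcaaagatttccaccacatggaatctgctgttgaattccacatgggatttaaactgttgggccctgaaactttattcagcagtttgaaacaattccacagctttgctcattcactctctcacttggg
Fmod (chr1:134037004-134037303, plus strand): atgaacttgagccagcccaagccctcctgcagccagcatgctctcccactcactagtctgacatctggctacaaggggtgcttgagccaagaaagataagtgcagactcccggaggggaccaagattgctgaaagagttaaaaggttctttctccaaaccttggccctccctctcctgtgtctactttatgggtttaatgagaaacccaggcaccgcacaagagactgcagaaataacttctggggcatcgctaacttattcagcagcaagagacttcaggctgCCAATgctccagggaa
Kera (chr10:97606955-97607254, plus strand): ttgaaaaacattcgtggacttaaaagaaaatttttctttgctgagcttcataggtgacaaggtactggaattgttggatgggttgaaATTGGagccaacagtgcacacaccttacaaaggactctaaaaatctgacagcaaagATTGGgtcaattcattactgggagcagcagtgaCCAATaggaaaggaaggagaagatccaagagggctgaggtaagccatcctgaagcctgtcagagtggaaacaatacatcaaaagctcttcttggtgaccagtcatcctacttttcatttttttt
Aspn and Ogn each held 2 TATA box matches, those of Ogn overlapping, where 13.6% of 32817 promoters of that length hold at least 1. Fmod, Kera and Aspn held 1, 3 and 1 CCAAT matches (37.4% of promoters have one). None of the 4 held a GC box, an AP-1 site or a SMAD box match (35.6%, 7.81% and 21% of promoters). Such matches describe the letters only. GC content was 31% for Aspn and 42.3% for Ogn, beside 77% for the first listed promoter of Podn and 63.7% for Bgn.

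Relative to Col1a1 and Col3a1, several of the genes were higher in all knockout than in all WT libraries, and relative to Col1a2 only Aspn was. This comparison was made with the collagen values known. Log2 fold changes were -1.29 for Col1a1, -0.941 for Col1a2 and -0.996 for Col3a1, none called. Higher ratios in knockout were thus favoured in advance, and the ratios are a description only. Col1a1, which encodes the alpha 1 chain of collagen I, was at 104, 127, 292 and 82.6 CPM in knockout libraries, against 921, 173, 171 and 215 CPM in WT libraries, and did not pass (log2 fold change -1.29 ± 0.62 SE, edgeR adjusted p = 0.311). WT replicate 1 was by far the highest, and without it the log2 fold change was -0.30 ± 0.41. The ratio of Dcn to Col1a1 in TPM was 5.85, 7.83, 7.58 and 6.75 in knockout libraries, against 2.39, 3.14, 4.91 and 3.68 in WT libraries. All knockout libraries thus lay above all WT libraries in this ratio, though for neither gene alone were the groups apart. Knockout replicate 3 and WT replicate 1 had close Dcn levels of 630 and 629 CPM, and their Col1a1 levels were 292 and 921 CPM.

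Of the 10 genes, 4 had a ratio to Col1a1 that was higher in every knockout than in every WT library, namely Dcn, Ogn, Omd and Aspn. This held for 4.22% of all tested genes. For Aspn the ratio was 0.448, 0.701, 0.419 and 0.854 in knockout libraries, against 0.119, 0.198, 0.200 and 0.173 in WT libraries, and for Ogn it averaged 0.747 ± 0.259 in knockout and 0.269 ± 0.131 in WT (SD, n = 4 each). With Col3a1, the gene of collagen III, below the line, 5 genes were apart, namely Dcn, Bgn, Ogn, Aspn and Podn, beside a background of 7.84%. With Col1a2, the other chain of collagen I, only Aspn was, beside 1.55%. Ratios in CPM in place of TPM left 3, 4 and 1 genes apart for Col1a1, Col3a1 and Col1a2, losing Omd and Bgn (background 4.2%, 5.65% and 1.59%). Among 14 fibroblast markers, 1, 5 and 1 were apart against Col1a1, Col3a1 and Col1a2, and in CPM 2, 4 and 0 were. Lum, Prelp, Fmod and Kera overlapped against all 3 collagens.

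**Figure D4:**
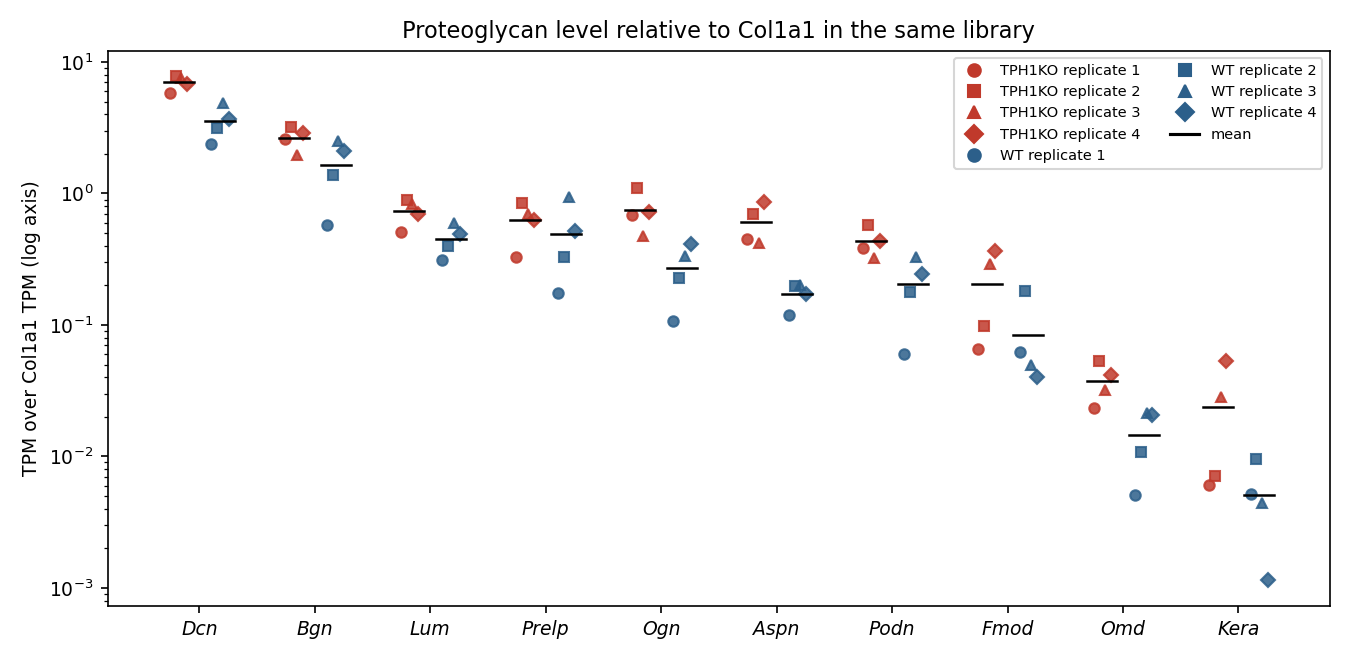
TPM of each gene divided by the TPM of Col1a1 in the same library, on a log axis, for 4 TPH1 knockout (red) and 4 WT (blue) libraries with group means as bars. For Dcn the knockout libraries run from 5.85 to 7.83 and the WT libraries from 2.39 to 4.91, and for Aspn from 0.419 to 0.854 and from 0.119 to 0.200.

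Other measures also differed between the genotypes. The summed CPM of 7 keratinocyte markers was 10810 to 14130 in knockout and 17160 to 25390 in WT libraries, with no overlap. All 7 had negative log2 fold changes (median -0.52), and 3 (42.9%) did not overlap between genotypes, beside 11% of all genes. DESeq2 called 3 of them, Krt1, Krt10 and Lor, beside 4.71% of its genes. By edgeR 1 was called, Lor, a marker of the cornified layer (log2 fold change -1.47 ± 0.24 SE, edgeR adjusted p = 0.0379). Leaving out each library in turn kept the Lor call in 1 fit of 8. Immediate early and heat shock genes respond to tissue handling. Over 10 of them, the sum ran from 1224 to 3833 CPM in knockout and from 1870 to 13150 CPM in WT libraries, with overlap. All 10 had negative log2 fold changes (median -1.95) and an unadjusted p under 0.05 in edgeR, beside 17.6% of all genes. In 3 of them (30%) the genotypes did not overlap. DESeq2 called 5, namely Atf3, Dnajb1, Hspa1a, Junb and Nr4a1. By edgeR 1 was called, Nr4a1 (126 ± 31.8 CPM in knockout and 571 ± 244 CPM in WT, SD, n = 4 each, edgeR adjusted p = 0.0324, called in 2 fits of 8). The part of these differences in the collagen ratios was not tested.

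Dcn took 53.7% ± 4.39 of the summed TPM of the 10 genes in knockout and 53.1% ± 6.62 in WT, and Bgn 20.4% ± 3.54 and 22.6% ± 5.32 (SD, n = 4 each). In the 2 libraries with the highest sums, Dcn took a larger and Bgn a smaller share: the Dcn share was 60.0% in knockout replicate 3 and 62.7% in WT replicate 1, beside 47.9% to 53.6% elsewhere, and the Bgn share was 15.5% and 15.2% there, beside 21.1% to 27.3% elsewhere. Aspn was the only gene of the 10 whose share was apart by genotype, at 4.11%, 4.57%, 3.32% and 6.36% in knockout libraries, against 3.11%, 3.28%, 2.03% and 2.25% in WT libraries. The closest values, 3.32% in knockout replicate 3 and 3.28% in WT replicate 2, were nearly equal. This count of 1 in 10 stands beside 11% of all tested genes without overlap in CPM, which is a different measure. No background was computed for shares. Ogn took 5.66% ± 1.47 in knockout and 3.83% ± 1.08 in WT, Prelp 4.70% ± 1.19 and 6.59% ± 2.14, and Lum 5.57% ± 0.851 and 6.77% ± 0.929, all with overlapping libraries. These shares are a description and were not tested.

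**Figure D5:**
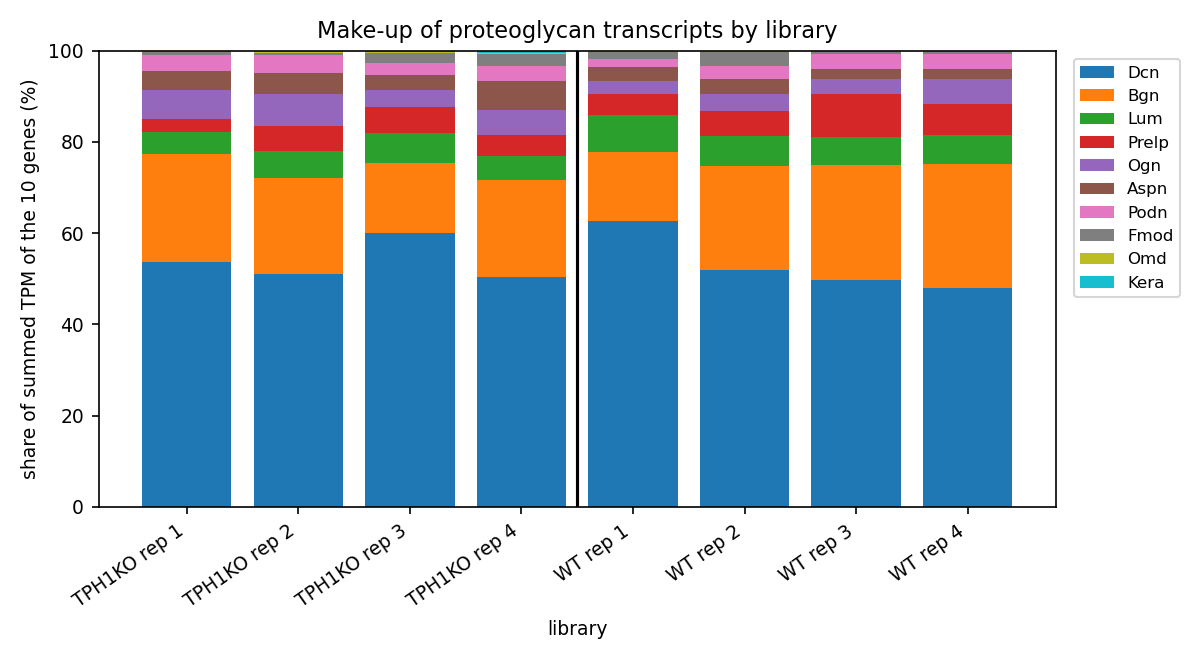
Share of each gene in the summed TPM of the 10 genes, in percent, for each TPH1 knockout (left of the line) and WT (right of the line) library. Dcn takes 60.0% in knockout replicate 3 and 62.7% in WT replicate 1, and Aspn 3.32% to 6.36% in knockout and 2.03% to 3.28% in WT libraries.

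Of 9 further family genes, 4 were high enough to test and 0 were called by edgeR or DESeq2, with 0 at an unadjusted p under 0.05. Ecm2, which encodes a related matrix protein, was at 9.21, 13.5, 35 and 14.6 CPM in knockout libraries, against 32.4, 7.15, 10.2 and 13.7 CPM in WT libraries, once more highest in knockout replicate 3 and WT replicate 1 (log2 fold change 0.19 ± 0.52 SE). Tsku, the gene of the signalling modulator tsukushi, was at -0.29 ± 0.22 on the log2 scale and Optc, which encodes opticin, at 0.59 ± 0.46 (SE). Epyc had 0 counts in all knockout libraries and 2 counts in 1 WT library.

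Enzymes that build the sulfated chains were given as lists. Of 22 genes for chondroitin and dermatan sulfate chains, 0 were called by edgeR and 1, Csgalnact2, by DESeq2, which called 4.71% of its genes. An unadjusted p under 0.05 in edgeR was found for 4 of the 22, beside 17.6% of all genes. Their median log2 fold change was -0.0658, or 0.0666 without WT replicate 1, and their summed level ran from 379 to 446 CPM in knockout and from 376 to 435 CPM in WT libraries. The genotypes did not overlap in 3 of the 22 (13.6%, beside 11% of all genes), with Csgalnact2 and Chpf2 above and Ust, a uronyl sulfotransferase gene, below WT. Csgalnact2, which starts the chondroitin chain, was at 23.5, 26.1, 30.7 and 31.7 CPM in knockout libraries, against 20.8, 14.9, 15.4 and 20.1 CPM in WT libraries (log2 fold change 0.65 ± 0.16 SE, edgeR adjusted p = 0.104, DESeq2 adjusted p = 0.0246). Chpf2, which helps to extend it, had a log2 fold change of 0.47 ± 0.15 (edgeR adjusted p = 0.163) and Csgalnact1, a paralog of the first, of 0.44 ± 0.17 (adjusted p = 0.229). Of 9 tested genes for keratan sulfate chains, 0 were called by either tool and 1 had an unadjusted p under 0.05 in edgeR, beside 17.6% of all genes. Their median was -0.128, but 0.17 without WT replicate 1 and 0.0364 without knockout replicate 1. B4galt1, a galactosyltransferase gene, averaged 96.3 ± 15.9 CPM in knockout and 133 ± 22.0 CPM in WT (SD, n = 4 each, edgeR adjusted p = 0.200). Chst1, which encodes a keratan sulfate sulfotransferase, and St3gal3, a sialyltransferase gene, were at log2 fold changes of -0.51 ± 0.34 and 0.47 ± 0.32 (SE).

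Binding partners did not pass either. Of 15 fibrillar collagens and fibril partners, 0 were called and 11 had negative log2 fold changes, with a median of -0.425 that was 0.0518 without WT replicate 1. Col3a1 averaged 206 ± 104 CPM in knockout and 410 ± 320 CPM in WT, while Col12a1, which encodes a collagen that sits on fibril surfaces, averaged 43.4 ± 10.8 and 27.3 ± 12.3 CPM (SD, n = 4 each; log2 fold change 0.67 ± 0.31 SE). Among 18 growth factors and receptors that these proteoglycans bind, 0 were called and the median was 0.0578. Tgfb1, a growth factor gene whose product decorin binds, was at 24.4, 28.4, 23.4 and 21.1 CPM in knockout libraries, against 33.5, 31.1, 42.5 and 31.7 CPM in WT libraries (log2 fold change -0.51 ± 0.14 SE, edgeR adjusted p = 0.135). All knockout libraries were below all WT libraries for Tgfb1 and for Met, a receptor gene for which decorin is a ligand (log2 fold change -0.41 ± 0.11 SE, edgeR adjusted p = 0.135), and all were above for Tgfb2, another growth factor gene. That is 3 of 18 genes without overlap (16.7%), beside 11% of all genes. P2rx7, a purinergic receptor gene tied to biglycan signalling, was at 0.71 ± 0.25 (SE, edgeR adjusted p = 0.206).

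Of 9 tested proteases that process or cleave these proteins, 0 were called and 7 had negative log2 fold changes, with a median of -0.435 (-0.152 without WT replicate 1). Mmp14, a membrane-bound collagenase gene, averaged 70.9 ± 19.6 CPM in knockout and 103 ± 17.4 CPM in WT, and Mmp3, the gene of stromelysin, 6.56 ± 3.78 and 13.2 ± 4.65 CPM (SD, n = 4 each; edgeR adjusted p = 0.221 and 0.270). Adamts1, a proteoglycan-cleaving protease gene, was at -0.996 ± 0.46 on the log2 scale (SE), with WT replicate 1 at 203 CPM. Of 10 tested genes for large interstitial proteoglycans and hyaluronan, 0 were called by either tool. An unadjusted p under 0.05 in edgeR was found for 5 of the 10, beside 17.6% of all genes. The genotypes did not overlap in 3 of the 10 (30%, beside 11% of all genes), with Agrn above and Has1 and Hyal2 below WT. Their median was -0.264, but 0.352 without WT replicate 1. In knockout libraries the hyaluronan synthase gene Has1 was at 0.694, 0.666, 0.479 and 0.0455 CPM, against 27.6, 1.2, 2.11 and 0.765 CPM in WT libraries (edgeR adjusted p = 0.157). Hyal2, a hyaluronidase gene, was at -0.38 ± 0.12 and Agrn, which encodes the basement membrane proteoglycan agrin, at 0.46 ± 0.16 on the log2 scale (SE). Across the 7 lists given for the family and its partners, edgeR called no gene in either direction and DESeq2 called Csgalnact2. The median over the fibroblast markers was -0.309 on the log2 scale, with 10 of 14 negative and 0 called, beside the median of 0.335 for the 10 proteoglycan genes. Both medians moved toward higher values without WT replicate 1, to -0.0699 and 0.584, and toward lower values without knockout replicate 3, to -0.401 and -0.185. Of the 14 fibroblast markers, 5 had an unadjusted p under 0.05 in edgeR, beside 17.6% of all genes. Only Twist2 did not overlap between genotypes, with knockout below WT (7.14% of the list, beside 11% of all genes).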

How the data were processed

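Bulk RNA-seq tables of 8 dorsal skin libraries were analysed. The deposited expected counts are RSEM estimates per gene, not whole in 10.7% to 11.5% of genes of a library, and the deposited TPM and FPKM values, per the file headers, come beside a gene length and effective length. In the authors' deposited matrix the signal is normalized and the labels tie it to DESeq2. Tools in the submitters' processing notes are RSEM 1.31 and STAR 2.7.6a with DESeq2, and the build is GRCm38. Strand handling in counting was not given.

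Expected counts were rounded and tested with edgeR 4.0.16 (R 4.3.3; filterByExpr with a minimum count of 10 and total of 15, TMM, robust quasi-likelihood test, genotype only, Benjamini-Hochberg over 16908 genes). The standard error is the log2 fold change over the square root of F. CPM is per TMM-scaled library size. Alternatives used other scalings, DESeq2 1.42.0, limma 3.58.1 on log2(TPM + 0.5) or log2(TPM + 0.1), gene lengths as offsets, no filter, and fewer libraries. Symbols came from the authors' matrix (17354) or a reference table (37798), and positions from GENCODE M21 on GRCm38. The members and lists were chosen with earlier results of these data known. Named genes are the 10 members, the 3 smallest p-values of each partner list, genes called and genes nearest in pattern; cell marker lists are given as sums where a result needs them. With 4 against 4 libraries an exact test cannot go below p = 0.0286.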

Additional observations from a re-analysis of the deposited data

Results flagged for a closer look

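Among the values examined for a library far from the rest of its genotype, 46 groups of 4 libraries in all, 2 stood out. Chance gives about 1 in 20, and 2 of 46 is no more than that. For Aspn, WT replicate 1 was at 42.0 CPM, and its gap to the nearest WT library was 0.899 of the WT range on the log2(CPM + 1) scale. For Podn, WT replicate 2 was at 15.8 CPM, below the other WT libraries, with a gap of 0.936 of the range. The Aspn flag concerns the one WT library that keeps the genotypes overlapping for that gene.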

How the results depend on the processing

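None of the 10 genes was called under any alternative. Left-out libraries gave ranges of the log2 fold change of -0.58 to 0.60 for Dcn, -0.88 to 0.37 for Lum, -0.60 to 1.09 for Fmod, -0.43 to 0.0421 for Bgn and -0.89 to 0.00176 for Prelp, which each changed sign, and 0.16 to 2.06 for Kera, 0.33 to 0.76 for Ogn, 0.08 to 0.67 for Omd, 0.40 to 1.25 for Aspn and 0.06 to 0.45 for Podn, which did not. Dcn was also just below 0 with RLE scaling (-0.0101), library totals (-0.00834), DESeq2 (-0.0118) and limma on TPM (-0.033 and -0.0332). Without both WT replicate 2 and knockout replicate 3, Dcn, Fmod, Omd and Podn were at -0.827, -0.525, -0.168 and -0.122, Lum, Bgn and Prelp at -1.13, -0.638 and -1.15, Kera was not tested, and 3 members had an unadjusted p under 0.05. Without both WT replicate 1 and knockout replicate 3, an alternative chosen after seeing the data, Kera was not tested either and Aspn stayed uncalled (edgeR adjusted p = 0.11). Of all genes, 110 were called, 81.8% of them lower in knockout. Calls ranged from 8 to 170 without 1 library. They numbered 27 with library totals, 846 with DESeq2, 32 and 29 with limma on log2(TPM + 0.5) and log2(TPM + 0.1), 167 and 70 without the 2 pairs of libraries. The share lower in knockout was 67.5% with DESeq2 and from 37.5% to 88.6% without 1 library. It fell below 50% without knockout replicate 1 (11 higher and 8 lower) or knockout replicate 2 (5 higher and 3 lower). Of the 7 partner lists, DESeq2 called 1 chondroitin chain gene and no other alternative called any. No scaling moved the median of all genes by 0.1. The genotype difference in total counts, 0.217 M counts, ranged from -0.579 to 0.939 M without 1 library (-0.225 without knockout replicate 1), with no p under 0.05. The Tph1 difference of -0.597 CPM ranged from -0.796 to -0.392 CPM. The cause of these shifts was not tested. No paired analysis was possible because replicates were numbered by record order and no label pairs libraries. Kera and Omd had at most 72 and 57 counts in a library.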
